A study of Mus musculus with 6 samples.

Results

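The transcripts described here encode 9 enzymes of the tricarboxylic acid (TCA) cycle, *Cs*, *Idh3a*, *Idh3b*, *Idh3g*, *Ogdh*, *Suclg1*, *Suclg2*, *Fh1* and *Mdh2*, in mouse liver tumors with and without the mitochondrial topoisomerase TOP1MT. They were picked by gene symbol from a table of 30236 genes, in which each of the 9 symbols occurs in 1 row. The rule names symbols and no measured value, but the list was chosen with earlier results of these data known. Tumors came from male C57BL/6 mice that were either WT or Top1mt -/- (KO) littermates, 3 libraries of each genotype. Both genotypes had received the liver mutagen diethylnitrosamine on day 14 and then the liver toxin carbon tetrachloride for 14 weeks from week 8, and tumors were collected at 22 weeks. The deletion is present in the whole animal, each library is 1 tumor nodule of bulk tissue, and no untreated or non-tumor liver was compared. In such tissue, fewer cells of a type and less RNA per cell cannot be told apart. Values are the deposited log2 expression values, the values of a genotype always follow replicates 1, 2 and 3, and differences are KO minus WT on that scale, with the 2 groups named as labelled.

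The TCA cycle runs in the mitochondrial matrix. Citrate synthase joins acetyl-CoA to oxaloacetate, isocitrate and α-ketoglutarate dehydrogenases release carbon dioxide and make NADH, succinyl-CoA ligase makes a nucleoside triphosphate, succinate dehydrogenase hands electrons to the respiratory chain, and fumarase and malate dehydrogenase regenerate oxaloacetate. In liver the cycle also supplies carbon for glucose, fatty acid and amino acid synthesis. All of its enzymes are encoded in the nucleus, made in the cytosol and imported, so the transcripts below are not copied from mitochondrial DNA, on which TOP1MT acts.

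The promoters of *Fh1* and *Cs* are shown because these genes had the largest negative and the largest positive genotype difference of the 9. Each line holds the 250 bases before the RefSeq start site on GRCm38.p6, 5′ to 3′ in the direction of the gene, with the CCAAT box or its reverse complement in capitals.
Fh1, chr1:175625636-175625885, minus strand: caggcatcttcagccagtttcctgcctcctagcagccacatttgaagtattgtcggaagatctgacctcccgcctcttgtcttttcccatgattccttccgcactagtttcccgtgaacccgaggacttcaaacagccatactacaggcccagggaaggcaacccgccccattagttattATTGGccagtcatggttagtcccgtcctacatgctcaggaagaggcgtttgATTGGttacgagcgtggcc
Cs, chr10:128337477-128337726, plus strand: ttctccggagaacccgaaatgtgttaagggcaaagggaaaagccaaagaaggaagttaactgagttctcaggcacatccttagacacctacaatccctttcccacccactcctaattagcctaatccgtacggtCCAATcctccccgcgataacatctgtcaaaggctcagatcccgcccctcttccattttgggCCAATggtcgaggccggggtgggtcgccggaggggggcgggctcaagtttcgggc
Both genes carried 2 copies of the box, beginning at -70 and -19 from the start site in *Fh1* and at -116 and -55 in *Cs*. *Ogdh*, with a log2 fold change of -0.065, also carried 2 copies, at -92 and -60. RefSeq promoter windows, from 250 bases before to 50 after the start, were matched for 8 of the 9 genes. The letters CCAAT, searched on both strands, were found in 5 of these 8 windows (*Fh1*, *Idh3b*, *Suclg2*, *Cs* and *Ogdh*) and in 37.9% of all 27025 windows. The ETS letters CCGGAAG were found in *Idh3b* and *Idh3g*, and in 9.12% of all windows. Neither the E-box CACGTG (7.24% of all windows), nor the NRF1 core motif (0.977%), nor the nuclear receptor site TCAAGGTCA (0.407%) was found in any of the 8. The windows of the 8 genes held from 13 to 27 CpG dinucleotides, against a median of 7 over all windows. A match of letters describes the sequence only.

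The libraries were first checked against their labels. WT replicates 1 to 3 gave *Top1mt* log2 values of 7.71, 5.99 and 8.01, KO replicates 1 to 3 gave 5.58, 6.41 and 6.32, and thus the library labelled WT replicate 2 lay below 2 of the 3 libraries labelled KO. Which exons the deletion removes is not given in the sources used here. In KO replicate 1 a single gene, *Gm42418*, took 17.7% of the summed linear values, against 0.0199% to 0.387% in the other libraries. This library also lay well below all others for *Idh3a* and *Ogdh*. The 9 enzymes are therefore given with and without these libraries, and so are several of the connected genes. Hepatocyte markers were high in all 6 libraries, with *Alb* between 20.3 and 21.1, and the tumor marker *Afp* ranged from 8.06 to 13.2.

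Between the libraries labelled KO and WT, none of the 9 enzymes reached an adjusted p of 0.05 by limma (0 of 9), nor did any other of the 22677 genes tested (0.0%). All 9 passed the filter on low values, with means of 8.21 or more where the filter lay at -0.89. At an unadjusted p under 0.05 by limma there was 1 of the 9, *Fh1*, against 4.34% of all genes tested (985 genes). Groups were separate, with no overlap, for 1 of the 9, again *Fh1*, against 8.28% of all genes tested. A count of 1 is the smallest above 0 and is not read as a result about the 9. The KO mean was higher in 4 enzymes and lower in 5, a split of 3 and 6 after quantile normalization and of 5 and 4 with library medians aligned. The median of the 9 log2 fold changes was -0.016, against -0.015 for all genes tested. Leaving out WT replicate 1 turned the median to 0.025, leaving out KO replicate 1 turned it to 0.056, leaving out WT replicate 2 gave -0.037, and leaving out both gave 0.090.

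*Fh1* encodes fumarase, which hydrates fumarate to malate. Its log2 value was 10.88 in WT replicate 1, 11.21 in WT replicate 2 and 10.97 in WT replicate 3, and 10.75, 10.77 and 10.40 in the KO replicates in the same order. Every library labelled KO lay below every one labelled WT, as in 4.33% of all genes tested, with a gap of 0.12 between the highest KO and the lowest WT value. WT libraries averaged 11.02 ± 0.17 (SD, n = 3) and KO libraries 10.64 ± 0.21 (SD, n = 3). The fitted log2 fold change was -0.38, its standard error 0.16 and its 95% interval -0.75 to -0.013. On the linear scale this is a ratio of 0.768. The adjusted p by limma was 0.999, and a two-sided exact test by permutation gave p = 0.1, as low as 3 against 3 libraries can go. The unadjusted p by limma was 0.0441, and it was 0.143 without WT replicate 2, 0.0761 without WT replicate 3, 0.140 without KO replicate 3 and 0.0404 without KO replicate 1. The difference ran from -0.45 to -0.26 over all settings. It was -0.29 without WT replicate 2, -0.44 without KO replicate 1 and -0.34 without both. On GRCm38 the gene lies on chromosome 1 from 175600374 to 175625635 (minus strand). It overlaps *Kmo* on the other strand, but the exons of the 2 genes share 0 bases. The mean log2 value of 4 bile duct markers also lay lower in every KO library (4.22 to 5.26) than in every WT library (5.37 to 6.87), while their summed level, 7.32 to 7.79 against 7.46 to 8.96 as log2, overlapped. Of the 4, *Krt19* and *Epcam* had groups that did not overlap, *Epcam* narrowly (highest KO value 5.216, lowest WT value 5.223). *Krt7* and *Sox9* overlapped. *Sox9* stood at 6.55, 6.15 and 7.53 in the WT and at 7.59, 6.31 and 6.77 in the KO replicates, and so was not lower in KO. The 4 markers ranged from 2.50 to 7.59 in single libraries and none was at 0. The summed level of 3 erythroid markers was also lower in every KO library, at 11.0 to 11.5 against 11.6 to 12.5 in WT as log2. Of the 3, only *Hbb-bs* had groups that did not overlap, while *Hba-a1* and *Alas2* overlapped. In single libraries the 3 ranged from 8.46 to 11.8. Among markers of other lists, *Pecam1* and *Cdh5* (endothelial) and *Ttr* (hepatocyte) were higher in every KO library, and *Cd3e* (lymphocyte) was lower. Groups were separate, in either direction, for 8.28% of all genes tested. All other markers of these lists overlapped. So did the mean of the endothelial markers, at 10.46 to 10.68 in KO and 10.24 to 10.48 in WT. *Ttr* was separate narrowly, with a lowest KO value of 16.383 and a highest WT value of 16.374. The part of any of these markers in the difference of *Fh1*, and in those of *Mdh1* and *Pck1* given further on, was not tested.

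**Figure D1:**
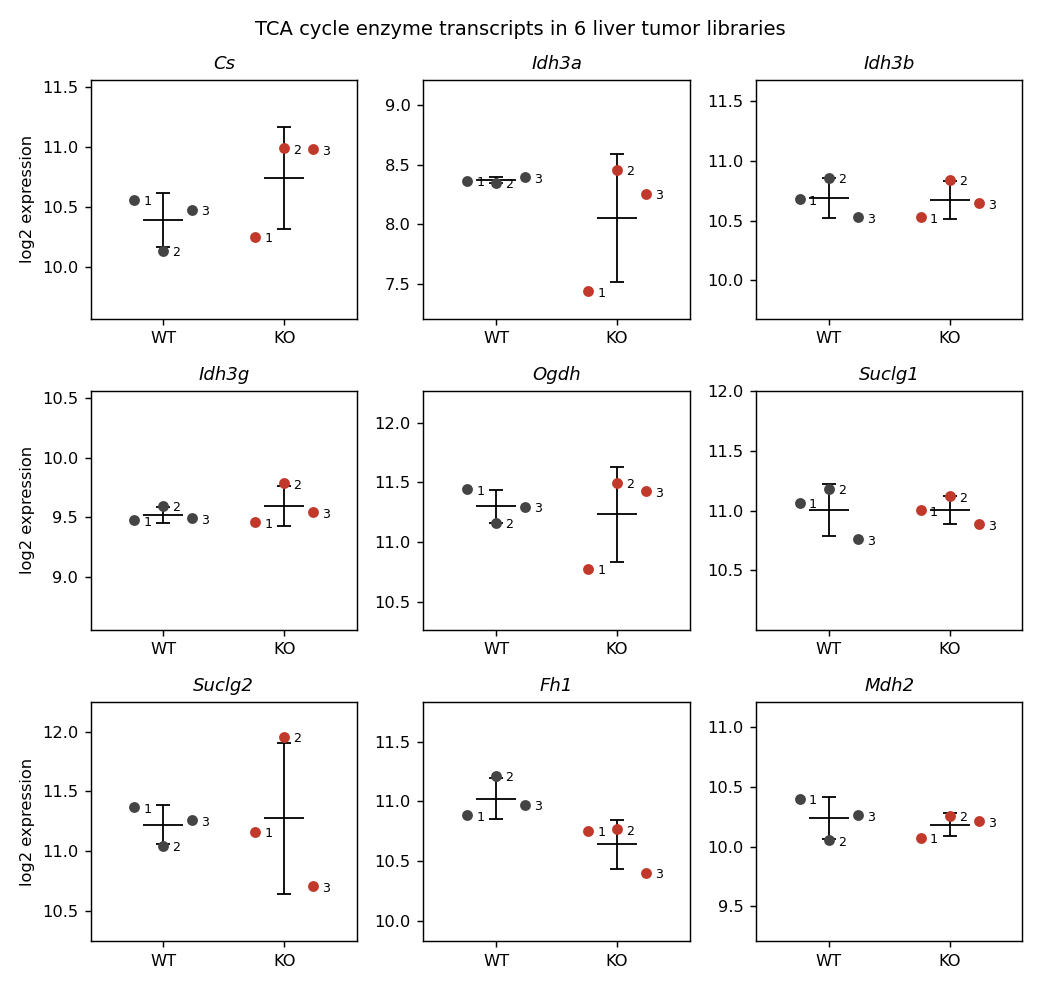
Deposited log2 expression (y axis, each panel spanning the same range) of the 9 TCA cycle enzymes in the libraries labelled WT (grey) and KO (red), with replicate numbers beside the points, the mean as a horizontal line and the SD as bars (n = 3). The KO points lie below all WT points for Fh1 alone, and KO replicate 1 lies far below the other 5 libraries for Idh3a.

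*Cs* encodes citrate synthase, the enzyme of entry. It stood at 10.56, 10.13 and 10.47 in the WT replicates and at 10.25, 10.99 and 10.98 in the KO replicates. KO replicates 2 and 3 were above all WT libraries, and KO replicate 1 lay between the WT values, so the groups overlapped. The fitted log2 fold change was 0.35 (standard error 0.23, limma's adjusted p = 0.999, 95% interval -0.18 to 0.88). Without KO replicate 1 it was 0.60, with an unadjusted p of 0.00877 and an adjusted p of 0.603 by limma, and without WT replicate 2 it was 0.23. The paralog *Csl* was near the bottom of the scale, at 0.16 to 1.35. Only uniquely mapped reads were counted, so reads that fit both genes equally would be missing from both.

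NAD-dependent isocitrate dehydrogenase, which makes α-ketoglutarate, has 3 kinds of subunit, and none of their genes passed the test. *Idh3a*, the catalytic subunit, stood at 8.37, 8.35 and 8.40 in the WT and at 7.44, 8.46 and 8.26 in the KO replicates. The WT libraries lay within 0.045 of each other, and KO replicate 1 was low by 0.77 against the mean of all 6. Its log2 fold change of -0.32 (standard error 0.26, limma's adjusted p = 0.999) shrank to -0.014 once KO replicate 1 was left out, so the lower mean rests on that library. Without WT replicate 2 the log2 fold change of *Idh3a* was -0.33. *Idh3b*, a regulatory subunit, stood at 10.68, 10.86 and 10.53 in the WT and at 10.53, 10.84 and 10.64 in the KO replicates. *Idh3g*, the other regulatory subunit, stood at 9.48, 9.60 and 9.49 in the WT and at 9.46, 9.78 and 9.54 in the KO replicates. Both overlapped between the groups, with log2 fold changes of -0.016 (95% interval -0.36 to 0.33) and 0.073 (95% interval -0.24 to 0.39). Without KO replicate 1 they were 0.056 and 0.14, and without WT replicate 2 they were 0.069 and 0.11.

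Subunits were also compared within each library, as the difference of 2 genes' log2 values, which says nothing of their absolute ratio. *Idh3g* minus *Idh3a* stood at 1.11, 1.25 and 1.10 in the WT and at 2.02, 1.33 and 1.29 in the KO replicates. All KO libraries lay above all WT libraries. Genotypes differed by 0.39 on average (two-sided exact permutation test, p = 0.1, which is the lowest value attainable), and by 0.15 without KO replicate 1. The lowest KO value was 0.039 above the highest WT value. *Idh3b* minus *Idh3a* stood at 2.31, 2.51 and 2.13 in the WT and at 3.09, 2.38 and 2.39 in the KO replicates. Here the groups overlapped, the genotypes differed by 0.30 (two-sided exact permutation test, p = 0.4), and by 0.070 without KO replicate 1. The 4 comparisons of this kind were chosen together, and adjusted over them none had a p below 0.4 by the method of Benjamini and Hochberg.

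**Figure D2:**
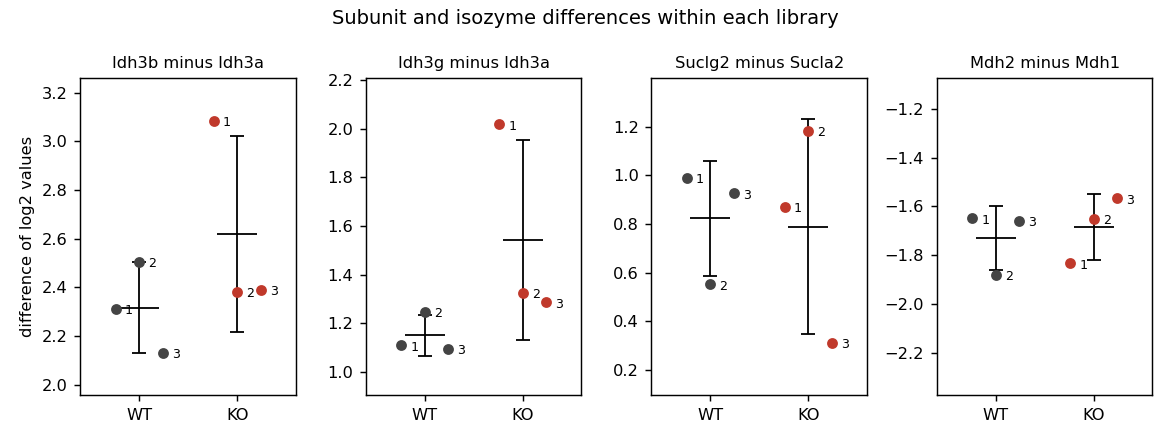
Difference of 2 genes' log2 values within each library (y axis) for 4 pairs, in the libraries labelled WT (grey) and KO (red), with replicate numbers, means (lines) and SDs (bars, n = 3). KO replicate 1 stands high in both panels that subtract Idh3a, and the groups are separate for Idh3g minus Idh3a alone.

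*Ogdh* encodes the first component of the α-ketoglutarate dehydrogenase complex. It stood at 11.44, 11.16 and 11.29 in the WT and at 10.78, 11.50 and 11.42 in the KO replicates. KO replicate 1 was again the lowest library, while KO replicate 2 was the highest. The log2 fold change of -0.065 (standard error 0.21, limma's adjusted p = 0.999) turned to 0.16 without KO replicate 1 and was -0.13 without WT replicate 2. *Dlst* and *Dld*, the other components of the complex, had log2 fold changes of 0.13 and -0.051, with overlapping groups, and of 0.27 and 0.027 without KO replicate 1. *Dlst* was at 0.039 without KO replicate 2. *Ogdhl*, a paralog of *Ogdh*, was at 0.43 to 3.50.

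Succinyl-CoA ligase pairs the common subunit encoded by *Suclg1* with a subunit that sets the nucleotide, *Suclg2* for GTP and *Sucla2* for ATP. *Suclg1* stood at 11.07, 11.18 and 10.76 in the WT and at 11.00, 11.12 and 10.88 in the KO replicates, and its log2 fold change was 0.00087 (95% interval -0.36 to 0.36), 0.00075 without KO replicate 1 and 0.090 without WT replicate 2. *Suclg2* stood at 11.37, 11.04 and 11.26 in the WT and at 11.16, 11.96 and 10.71 in the KO replicates. It was the most variable of the 9 over the 6 libraries (SD 0.41, above 87.6% of the 6575 genes with a mean of 8 to 12), and KO replicates 2 and 3 were its extremes. Its log2 fold change was 0.052 (standard error 0.29), -0.29 without KO replicate 2 and 0.34 without KO replicate 3. Leaving out KO replicate 1 gave 0.11, and leaving out WT replicate 2 gave -0.037. *Suclg2* minus *Sucla2* stood at 0.99, 0.55 and 0.93 in the WT and at 0.87, 1.18 and 0.31 in the KO replicates, a genotype difference of -0.034 (two-sided exact permutation test, p = 0.9).

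*Mdh2* encodes the mitochondrial malate dehydrogenase, which closes the cycle. It stood at 10.40, 10.05 and 10.26 in the WT and at 10.08, 10.26 and 10.21 in the KO replicates, and the KO values lay within the WT range. The log2 fold change was -0.055 (95% interval -0.38 to 0.27), 0.025 without WT replicate 1, -0.15 without WT replicate 2 and -0.0017 without KO replicate 1. *Mdh1*, its cytosolic counterpart, stood at 12.05, 11.93 and 11.92 in the WT and at 11.91, 11.91 and 11.78 in the KO replicates. Its KO values lay below all WT values, as in 4.33% of all genes tested, but by a margin of 0.0091 and with a log2 fold change of -0.10. The difference *Mdh2* minus *Mdh1* was higher by 0.045 in KO (two-sided exact permutation test, p = 0.6).

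Apart from *Fh1*, the 95% intervals of 8 of the 9 genes included 0. Their bounds reached from -0.91 (*Idh3a*) to 0.88 (*Cs*), so differences of up to these sizes lay within the intervals. For *Idh3b*, *Idh3g*, *Suclg1* and *Mdh2* the bounds lay within 0.39 of 0.

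**Figure D3:**
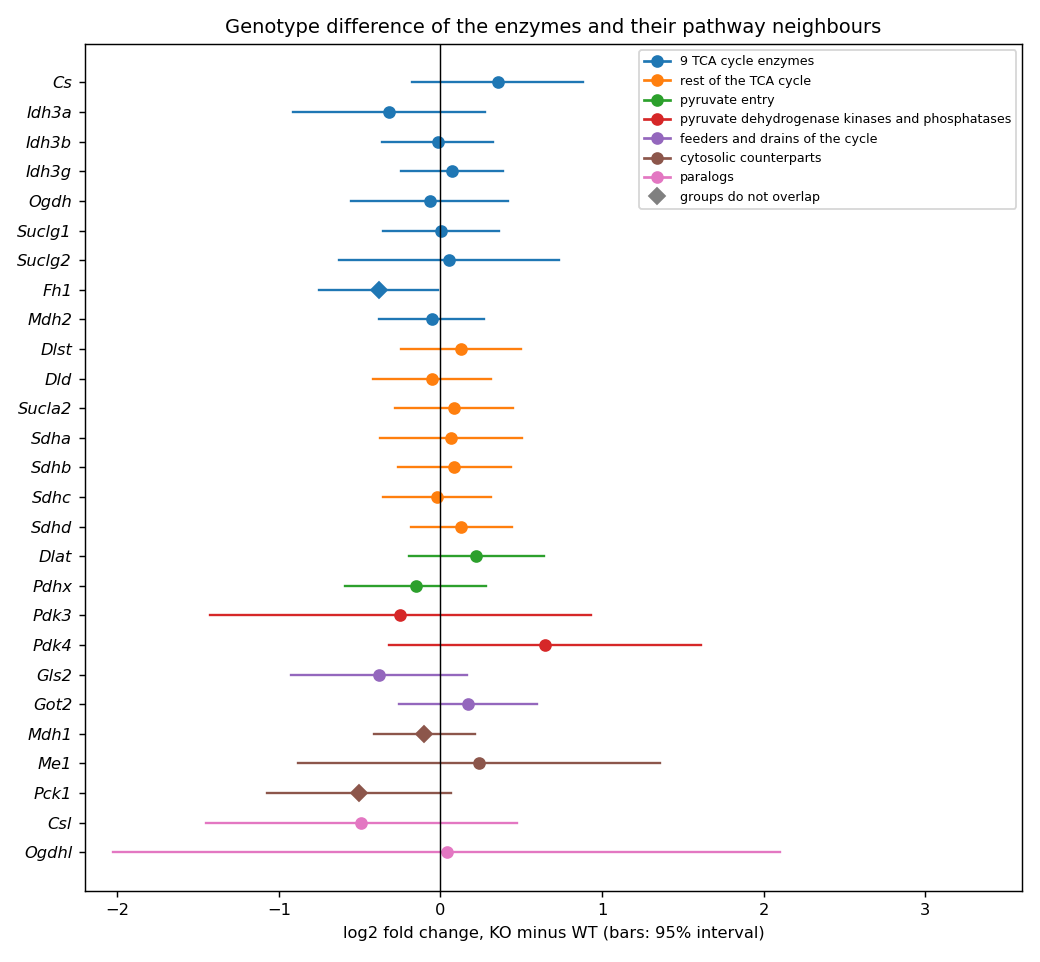
Log2 fold change, KO minus WT (x axis, points), with its 95% interval by limma (bars) for the 9 enzymes, 7 further genes of the cycle and the named genes of 5 connected lists, coloured by list, with diamonds for genes whose groups do not overlap. Most intervals span 0, and Fh1, Mdh1 and Pck1 are the genes drawn as diamonds.

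The enzymes also differed between libraries of the same genotype. KO replicate 2 was the highest library in 5 of the 9 enzymes, against 16.8% of the genes with a mean of 8 to 12. KO replicate 1 was the lowest in 3 of the 9, against 19.7%. KO replicate 1 lay below KO replicate 2 in 9 of 9 enzymes, with a median gap of 0.32, where 49.0% of genes of that level did and their median gap was -0.010. After centring each gene on its own mean, the 9 enzymes averaged 0.073, 0.0019 and -0.016 in the WT replicates and -0.24, 0.23 and -0.058 in the KO replicates. The KO libraries thus enclosed all WT libraries. Over genes with a mean of 8 to 12 the same means lay between -0.025 and 0.035. These counts compare single libraries and have no replicate.

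A further 7 genes of the cycle showed the same order of these libraries in part. KO replicate 2 was the highest in 4 of the 7, and KO replicate 1 lay below it in 5 of the 7. The mean of their centred values was -0.059, 0.22 and -0.065 in KO replicates 1, 2 and 3 and from -0.051 to -0.0072 in WT. The succinate dehydrogenase genes *Sdha*, *Sdhb*, *Sdhc* and *Sdhd* had log2 fold changes of 0.064, 0.087, -0.020 and 0.13, and of 0.22, -0.0051, -0.029 and 0.063 without KO replicate 1. *Sdhb* and *Sdhd* were highest in KO replicate 1, unlike *Ogdh*, *Idh3a* and *Sdha*, which were lowest there. None of the 7 had an unadjusted p under 0.05 by limma, 5 were higher in KO and 2 lower, and the median was 0.086.

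**Figure D4:**
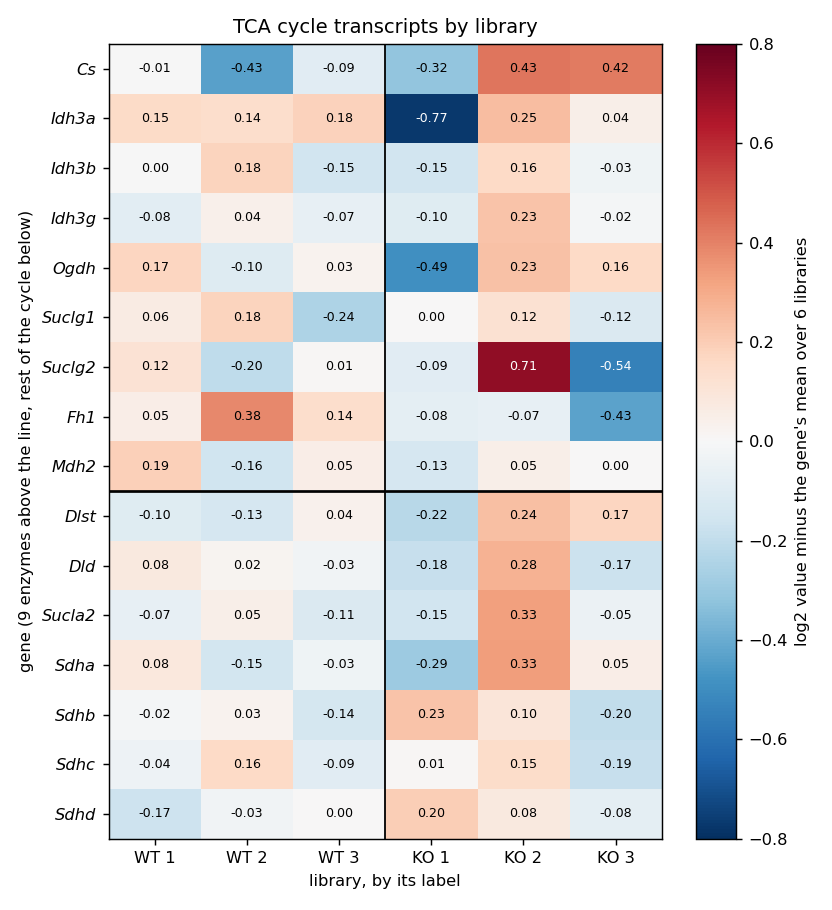
Log2 value minus the gene's mean over the 6 libraries (colour and printed number) for the 9 enzymes above the line and 7 further TCA cycle genes below it, with libraries in columns by their label. KO replicate 2 is red in most genes, KO replicate 1 is blue for Idh3a and Ogdh, and Fh1 is red in the WT and blue in the KO columns.

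Spread within a genotype was wider in KO for 6 of the 9 enzymes and for 7 of the 7 further genes of the cycle. Among the genes with a mean of 8 to 12 this held for 60.5%. The median SD of the 9 was 0.17 in WT and 0.21 in KO. *Idh3b*, *Idh3g*, *Suclg1* and *Mdh2* were among the steadier genes of their level, with an SD over 6 libraries of 0.12 to 0.16, and *Cs*, *Idh3a* and *Suclg2* were among the more variable ones, with 0.36 to 0.41.

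The order of the levels was examined after division by length, as the log2 value minus the log2 of the summed exon length in kilobases. *Fh1* (9.07) and *Suclg2* (9.04) had the highest level per kilobase, followed by *Idh3b* (8.90), *Ogdh* (8.82), *Suclg1* (8.79), *Mdh2* (8.38), *Idh3g* (8.13), *Cs* (8.03) and *Idh3a* (5.87). The first 5 changed places between libraries and cannot be ordered. *Suclg1* was above *Mdh2* and *Mdh2* above *Idh3g* in 6 of 6 libraries, while *Idh3g* and *Cs* changed places. *Cs* was above *Idh3a* in 6 of 6 libraries, by 2.16 ± 0.40 (SD, n = 6). The exon lengths were those of all annotated transcripts together, which the tumors may not all use.

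The genes whose profile over the 6 libraries was nearest to the mean profile of the 9 enzymes were *Gpalpp1*, *Rcbtb2*, *D17Wsu92e*, *Atp5b* and *Chchd4*, at a root mean square distance of 0.030 to 0.038 on the log2 scale. *Atp5b*, the β subunit of ATP synthase, stood at 13.73, 13.66 and 13.58 in the WT and at 13.44, 13.95 and 13.59 in the KO replicates. Among the 9 themselves *Idh3g* was nearest to their mean profile, at 0.090, and *Suclg2* the farthest, at 0.30. These genes were chosen for their likeness, which is given as a description with no test, and the profile of *Fh1*, at 0.27, was among the least like it.

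Genes that feed or drain the cycle were compared in the same fit. The 6 genes of pyruvate entry had a median log2 fold change of 0.047, from *Pdhx* (-0.15), which holds the pyruvate dehydrogenase complex together, to *Dlat* (0.22), its acetyl transferase. *Dlat* was at 0.41 without KO replicate 1 and at 0.093 without KO replicate 2, and *Pdhx* at -0.078 without KO replicate 1, -0.34 without KO replicate 2 and -0.040 without KO replicate 3. The 7 kinases and phosphatases of that complex had a median of 0.094, from *Pdk3* (-0.25) to *Pdk4* (0.64), a kinase induced by fasting, which stood at 7.72, 6.29 and 6.81 in the WT and at 7.03, 7.52 and 8.21 in the KO replicates. The difference of *Pdk4* was 1.03 without WT replicate 1, 0.32 without WT replicate 2 and 0.33 without KO replicate 3. The 12 genes that supply or withdraw intermediates had a median of -0.051, from *Gls2*, liver glutaminase (-0.38), to *Got2*, mitochondrial aspartate aminotransferase (0.17). *Gls2* was at -0.62 without KO replicate 1 and at -0.19 without KO replicate 3, and *Got2* at 0.30 without KO replicate 1, 0.066 without WT replicate 3 and 0.036 without KO replicate 2. In these 3 lists 0 genes had an unadjusted p under 0.05 by limma with all 6 libraries, and the groups overlapped in every gene. Of the genes named from them, *Gls2* (unadjusted p 0.0109 by limma) and *Dlat* (0.0170) came under that level without KO replicate 1, and *Pdk4* (0.0318) without WT replicate 1, while their adjusted p stayed at 0.615 or more.

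The 7 cytosolic counterparts had a median of -0.14, with 5 lower and 2 higher in KO, and 0 at an unadjusted p under 0.05 by limma. Groups were separate with KO lower for 2 of these 7, *Mdh1* and *Pck1*, against 4.33% of all genes tested. A count of 2 is not read as a result about the list. *Pck1* makes phosphoenolpyruvate from oxaloacetate in gluconeogenesis. It stood at 14.77, 14.43 and 14.31 in the WT and at 14.18, 14.09 and 13.74 in the KO replicates, a log2 fold change of -0.50 (standard error 0.25, limma's adjusted p = 0.999) and a range of -0.63 to -0.37 over the settings tried. *Me1*, malic enzyme, stood at 10.08, 9.56 and 9.65 in the WT and at 9.21, 11.27 and 9.53 in the KO replicates, so that KO replicate 2 stood highest here too. Its log2 fold change was 0.24, and -0.40 without KO replicate 2.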

How the data were processed

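RNA from 3 WT and 3 Top1mt -/- mouse liver tumors was measured by RNA-seq on stranded libraries. As deposited, the table gives 1 log2 value a gene and library, normalized by the authors with a transform that the sources used here do not name. The range is -2.24 to 22.0. Whether low values were shrunk as in a regularized log, which would understate changes of weakly expressed genes, was not tested. The submitters' processing notes name Trimmomatic 0.36, STAR 2.5.1, Subread, DESeq2 and GRCm38, whereas the study's methods name BWA and a genome called Mm 8, so it is not settled which aligner and build made the values. Strand use in counting is not given. Read totals cannot be recovered from such values, so depth is unknown and no count model was run. The table has 0 further columns of per-sample values, and 3 columns without a name (24 leftover cells) were not used.

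Genotypes were taken from the sample labels and compared with limma 3.58.1 in R 4.3.3 (lmFit and eBayes with a trend, two-sided, p adjusted by Benjamini-Hochberg) on 22677 genes, leaving out the 25% with the lowest mean. Single values were compared by two-sided exact permutation tests. The limma p-values set the genotype difference against the spread between libraries of the same genotype, moderated over all genes tested. The permutation p-values rest on relabelling the 6 libraries. The procedure was tested on simulated data, in which the shifts put in were all larger than any difference of the 9 enzymes. Whether differences of the enzymes' size would be found was thus not tested. Gene positions and exon lengths came from GENCODE M21 on GRCm38 and promoters from RefSeq on GRCm38.p6, since the table holds no coordinates. Protein sequences were not used here. The 9 enzymes, the 6 pathway lists (42 genes), the cell type markers and the motifs were chosen with earlier results of these data known. Named genes are all genes of the cycle (1 is not reported here), the extremes of each other list, genes without overlap or with an unadjusted p under 0.05, and the 5 nearest profiles. *Kmo* was named for its position. Alternatives were limma without trend, quantile normalization, aligned library medians, other filters on low values (none, or the median), a block for the replicate number, and leaving libraries out.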

Additional observations from a re-analysis of the deposited data

How the results depend on the processing

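The count of genes past an adjusted p of 0.05 by limma, 0 in the fit reported (985 genes at an unadjusted p under 0.05), was 4 with no filter on low values, 0 without trend and between 0 and 1 when single libraries were left out. With a filter at the median 590 genes had an unadjusted p under 0.05, since fewer genes were tested. *Fh1* as the 1 enzyme at that level was lost without trend (0), with library medians aligned (0), with the replicate block (0), and when WT replicate 2, WT replicate 3 or KO replicate 3 was left out. Without both WT replicate 2 and KO replicate 1 the 1 enzyme was *Cs* (unadjusted p 0.0127 by limma), not *Fh1* (0.0963). The count lay between 0 and 2 over the libraries left out, the second gene being *Cs* without KO replicate 1. The block was no true pairing, because deviations from the group mean correlated at only -0.12, -0.076 and 0.052 between libraries with replicate numbers 1, 2 and 3. None of the 28 genes followed, *Top1mt* included, passed under these settings (smallest adjusted p 0.603 by limma). *Kmo* and the 5 genes with the nearest profiles were not followed. Leaving out 1 library also brought *Gls2*, *Dlat* and *Pdk4* to an unadjusted p under 0.05.

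Small differences turned sign. Aligning the library medians added the same amount, 0.054, to the log2 fold change of every gene, where the median of all genes tested had been -0.015. For the other settings the cause was not tested. The median of the 9 was 0.038 with library medians aligned, 0.025 without WT replicate 1, 0.056 without KO replicate 1, 0.090 without WT replicate 2 and KO replicate 1, and at its lowest -0.10 without KO replicate 2. Aligned medians also turned *Idh3b* (0.038), *Dld* (0.0031) and *Sdhc* (0.034), and quantile normalization turned *Suclg1* (-0.028) and *Sdha* (-0.0018). With libraries left out, log2 fold changes spanned -0.10 to 0.14 for *Idh3b*, -0.022 to 0.18 for *Idh3g*, -0.20 to 0.16 for *Ogdh*, -0.12 to 0.090 for *Suclg1*, -0.29 to 0.34 for *Suclg2*, -0.15 to 0.025 for *Mdh2*, -0.20 to 0.027 for *Dld*, -0.057 to 0.23 for *Sucla2*, -0.087 to 0.22 for *Sdha*, -0.0051 to 0.21 for *Sdhb*, -0.098 to 0.068 for *Sdhc*, -0.60 to 0.21 for *Pdk3*, -0.40 to 0.64 for *Me1* and -0.67 to 0.87 for *Ogdhl*. *Suclg2* minus *Sucla2* spanned -0.23 to 0.20 and *Mdh2* minus *Mdh1* -0.031 to 0.12. Of the 28 genes followed, 14 turned sign under some setting. Among those that never did were *Fh1*, *Cs*, *Idh3a* and *Pck1*, although *Idh3a* was only -0.014 without KO replicate 1.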
